A study of Mus musculus with 7 samples.

Results

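The data on 8 genes of the ciliary axoneme are described here: the 5 tektin genes of the mouse (Tekt1 to Tekt5) and Efhc2, Mns1 and Spag8. They were taken by symbol, and 8 of 8 were found among the 32531 symbols of the count tables. RNA came from tissue dissected around the brain ventricles of adult Dcdc2a-EGFP/Rpl10a mice (line ES2575), whose transgene ties the tag EGFP to the ribosomal protein Rpl10a under the name of Dcdc2a. The immunopurified group (IP, 3 libraries, numbers 1, 3 and 4) is ribosome-bound RNA captured with antibodies to EGFP. The Input group (4 libraries, numbers 1 to 4) is total RNA of the same region. Both groups carry the transgene, so no tag-free control is present, and the sources used here do not give sex, exact age or any pooling of animals.

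The motile cilium is built on a ring of doublet microtubules, each an A tubule joined to a B tubule. Tektins are coiled-coil proteins that run as filaments along the inside of the A tubule. Efhc2, an EF-hand protein, and Mns1 and Spag8, a pair of proteins first known from germ cells and sperm, also sit inside the doublet, where such lumenal proteins are thought to stiffen it against bending. Ependymal cells line the ventricles and bear tufts of these cilia, which move cerebrospinal fluid.

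Counts assigned to genes ranged from 37203427 to 52175180 per library, and 3 counts corresponded to 0.0585 to 0.0819 CPM (counts per 1000000 counts in genes, scaled with TMM factors), a floor that covers counting error only. The labelled cells were described with marker lists chosen with earlier results of these data known, so they give no independent check. All 10 ependymal markers rose in IP by edgeR's quasi-likelihood test, beside 3.64% of all tested genes. With the library number as a block 5 were called, beside 0.553% of all tested genes. Without IP 4 or any 1 Input, 0 or 1 were called, beside 0.0235% to 0.123%. Their summed level was 223, 3171 and 2623 CPM in IP 1, IP 3 and IP 4, against 29.0 to 54.3 CPM in the Inputs. Foxj1, the transcription factor of motile ciliogenesis, had 32.2, 344 and 427 CPM in the IP libraries, against 4.33 to 13.0 CPM in the Inputs. It was not called with the block (adjusted p = 0.129 by edgeR), nor without IP 4 or any 1 Input (adjusted p = 0.0503 to 0.0584, also edgeR). IP 1 thus stood apart from IP 3 and IP 4, and Dcdc2a itself had 43.6 CPM there, inside the Input range of 27.7 to 73.9 CPM. Over all libraries the Dcdc2a excess, 2.21 in log2 (SE 0.63), was not called by edgeR (adjusted p = 0.0743, and 0.101 with the block). It was called by DESeq2 (adjusted p = 0.00414) and by edgeR without IP 1 (adjusted p = 0.00205). Mural and fibroblast markers moved with the IP as well: 6 of 10 rose, with sums of 100.3, 1364 and 664 CPM in IP 1, IP 3 and IP 4, against 38.4 to 92.0 CPM in the Inputs. Choroid plexus markers summed to 2152 to 4929 CPM in IP and 2879 to 5292 CPM in Input. Neuronal markers summed to 8691 to 11739 CPM in IP and 11023 to 13675 CPM in Input. Of 10 astrocyte markers 2 rose and 0 fell (median log2 fold 0.74), and of 10 oligodendrocyte markers 0 rose and 2 fell (median log2 fold -0.70). Beside the counts of all these lists, 3.64% of all tested genes were called higher and 2.16% lower. No marker of any list was at 0 in every library. The part of these other cells in the results below was not tested.

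Short promoter stretches are shown first because 7 of the 8 genes hold the letters GTTGC near a start, the core of the X-box bound by RFX factors, a family that drives many ciliary genes. The windows run from 250 bases before to 50 bases after a start in RefSeq (GRCm38.p6). All 8 genes were matched, and the window nearest the start of the gene model was used. For Tekt4 its start lies 16975 bases from that of the GENCODE model, inside the longer model. For Tekt1, Mns1 and Efhc2 the starts lie 560, 518 and 573 bases apart, and the Efhc2 window lies wholly outside its model. Each line gives 30 bases around the GTTGC nearest the start, read 5′ to 3′ on the strand named, with GTTGC in capitals.
Tekt1 (chr11:72361881-72361910, minus strand): ttgcgtccgtccgGTTGCcatagagaccgc
Spag8 (chr4:43653550-43653579, plus strand): tccacctcccggGTTGCcatagagacggca
Tekt3 (chr11:63061617-63061646, minus strand): ctgccctaggcgGTTGCtatggacgctcac
Tekt2 (chr4:126325693-126325722, plus strand): tttgcggctctgGTTGCcgagcaaccgccc
Tekt4 (chr17:25471586-25471615, minus strand): gcaaggttcctgGTTGCctaaggaacattg
Mns1 (chr9:72438531-72438560, plus strand): tgcatttttggcgGTTGCcgggacacagct
Tekt5 (chr16:10395674-10395703, minus strand): cggttgtgatgtgGTTGCtaggaacttagc

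The Tekt1 and Spag8 stretches share a run of 15 bases, on the gene's own strand in Tekt1 and on the opposite strand in Spag8. The printed GTTGC begins at position -15 from the start in Tekt1 and lies 28 to 32 bases past it in Spag8. In Tekt5 it begins at position -235, farther away than in any of the others shown. The letters GTTGC, searched on both strands, were written down as a motif after the sequences had been seen, so their presence is no test, and 35.2% of all 32851 windows in the table hold them. The longer form GTTGCC, which contains GTTGC, was in the windows of Tekt1, Tekt2, Tekt4, Mns1 and Spag8 and in 12.5% of all windows. A spaced X-box of 14 letters was in the Tekt4 window and in 2.17% of all, and the forkhead motif TGTTTAC was in the Tekt3 window and in 3.65% of all. None of these 4 motifs was in the Efhc2 window. These are matches of letters, not measured binding.

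IP was compared with Input to ask which of the genes are richer in RNA on tagged ribosomes than in the tissue. Tekt4, Mns1 and Spag8 rose, Tekt5 lay lower in every IP library without passing the test, and Tekt1, Tekt2 and Efhc2 did not pass. Tekt3 was left out by the filter on low counts, since only 2 libraries had more than 10 reads. Thus 3 of the 7 genes tested were called higher and 0 lower (edgeR's quasi-likelihood test, Benjamini-Hochberg adjusted p under 0.05), beside 3.64% of 17375 tested genes called higher and 2.16% called lower. Without adjustment, 6 of the 7 were higher and 0 lower at p under 0.05, beside 13.3% and 9.4% of all tested genes. DESeq2, which also tested Tekt3, called 6 of 8 higher and 0 lower, beside 8.78% and 6.38% of all genes. The median log2 fold of the 7 was 3.25, beside 0.06 over all tested genes. More cells of a type and more RNA per cell cannot be told apart in such bulk libraries.

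**Figure D1:**
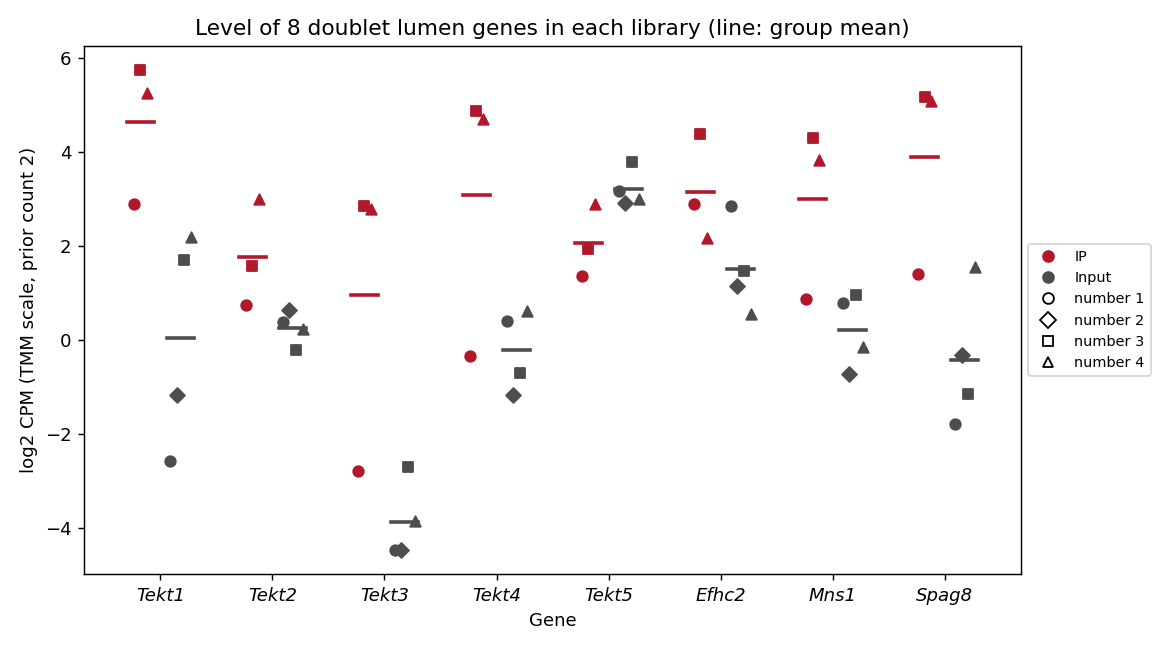
Level of each gene in each library as log2 CPM with a prior count of 2 (vertical axis); red symbols are the 3 IP and grey symbols the 4 Input libraries, the symbol shape gives the library number and a line marks the group mean. IP 3 and IP 4 lie far above the Inputs for Tekt1, Tekt3, Tekt4, Mns1 and Spag8, IP 1 lies lower than both for these genes, and Tekt5 is lower in the IP libraries than in the Inputs.

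Tekt1 (ENSMUSG00000020799.16, chromosome 11, 72344722 to 72362442, minus strand, 8 exons in its longest transcript) encodes a tektin known from both cilia and sperm flagella. It had 7.33, 53.3 and 37.9 CPM in IP 1, IP 3 and IP 4, against 0.123, 0.402, 3.22 and 4.52 CPM in Inputs 1 to 4. Every IP library was above every Input, but the Inputs themselves spread from 5 to 184 reads. On the log2 scale the IP excess was 3.99 (SE 1.10), which missed the threshold in edgeR (adjusted p = 0.0689). With the library number as a block it was 4.16 and called (adjusted p = 0.0412 by edgeR). Tekt1 was the sole member called of the 7 tested in that fit, beside 0.553% of all tested genes.

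Tekt4 (ENSMUSG00000024175.2, chromosome 17, 25454615 to 25476602, plus strand), needed in mice for normal sperm motility, had 0.741, 29.2 and 25.8 CPM in IP 1, IP 3 and IP 4, against 1.28, 0.402, 0.573 and 1.50 CPM in Inputs 1 to 4. The groups overlapped, since IP 1 lay inside the Input range while IP 3 and IP 4 were far above it. The gene averaged 18.6 ± 15.5 CPM over the 3 IP and 0.937 ± 0.531 CPM over the 4 Input libraries (± SD), and rose by 4.31 in log2 (SE 1.01; adjusted p = 0.0397 by edgeR). The block ended this call (3.36 in log2, adjusted p = 0.324), as did testing with no filter on low counts (adjusted p = 0.0576, also edgeR).

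Tekt3 (ENSMUSG00000042189.5, chromosome 11, 63061654 to 63094964, plus strand), another tektin of sperm flagella in mice, was close to undetected outside IP 3 and IP 4. It had 5, 325 and 349 reads in IP 1, IP 3 and IP 4, against 0, 0, 4 and 1 reads in Inputs 1 to 4. IP 1 lay inside the Input range at 0.100 CPM, against 7.15 CPM in IP 3 and 6.80 CPM in IP 4. Tested by edgeR with no filter, the IP excess was 7.07 in log2 (SE 1.58; adjusted p = 0.0304), a size that depends on how 5 Input reads in all are handled.

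Tekt2 (ENSMUSG00000028845.15, chromosome 4, 126322121 to 126325688, minus strand), which mice need for sperm motility, differed much less. It had 1.62, 2.93 and 7.91 CPM in IP 1, IP 3 and IP 4, against 1.25, 1.52, 0.819 and 1.13 CPM in Inputs 1 to 4. Every IP was above every Input, IP 1 only just, and the difference of 1.81 in log2 (SE 0.75) was not called by edgeR (adjusted p = 0.181). It was 0.95 without IP 4. An antisense transcript model, Gm12945, covers 20.8% of its exon bases, so without a known strand setting its counts are uncertain.

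Tekt5 (ENSMUSG00000039179.13, chromosome 16, 10357948 to 10395490, minus strand), a tektin best known from rodent sperm flagella, ran the other way. It had 2.50, 3.76 and 7.35 CPM in IP 1, IP 3 and IP 4, against 8.95, 7.48, 13.7 and 7.98 CPM in Inputs 1 to 4. Every IP was below every Input, as for 10.4% of all tested genes, although IP 4 and Input 2 nearly met. The difference, -1.07 in log2 (SE 0.49), was not called by edgeR either (adjusted p = 0.231). Every IP above every Input, the pattern of Tekt1 and Tekt2, was seen for 9.54% of all tested genes.

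Spag8 (ENSMUSG00000066196.11, chromosome 4, 43651335 to 43653594, minus strand) had 2.60, 35.7 and 33.9 CPM in IP 1, IP 3 and IP 4, against 0.245, 0.760, 0.409 and 2.90 CPM in Inputs 1 to 4. Input 4 lay just above IP 1, and IP 3 and IP 4 agreed closely with each other. Spag8 rose by 4.48 in log2 (SE 1.05; adjusted p = 0.0416 by edgeR), more than any other of the 7 tested. The block gave a like size, 4.40, but no call (adjusted p = 0.0606 by edgeR), and with no filter it was not called either (adjusted p = 0.0759).

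Mns1 (ENSMUSG00000032221.14, chromosome 9, 72438011 to 72462025, plus strand), which mice need for sperm flagella and for normal motile cilia, had 1.78, 19.5 and 14.2 CPM in IP 1, IP 3 and IP 4, against 1.67, 0.559, 1.88 and 0.859 CPM in Inputs 1 to 4. IP 1 again lay inside the Input range. Mns1 rose by 3.25 in log2 (SE 0.78; adjusted p = 0.0399 by edgeR), and with the block the excess was 2.62 and not called (adjusted p = 0.253). Tex9, a gene on the opposite strand, shares 53.0% of the exon bases of the Mns1 model, so the counts of Mns1 are uncertain. Reads that could be placed in more than 1 gene were left out, and were more numerous in every Input than in every IP library. The effect of this on the Mns1 fold was not tested. Tex9 had 22.4, 148 and 73.7 CPM in IP 1, IP 3 and IP 4, against 21.7 to 40.4 CPM in the Inputs, a difference of 1.31 in log2 (SE 0.51) that edgeR did not call (adjusted p = 0.166) but did call without IP 1 (1.75 in log2, adjusted p = 0.000433).

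Efhc2 (ENSMUSG00000025038.7, X chromosome, 17132049 to 17319368, minus strand) had 7.41, 20.7 and 4.46 CPM in IP 1, IP 3 and IP 4, against 7.16, 2.17, 2.70 and 1.42 CPM in Inputs 1 to 4. It was the member in which IP 4 was the lowest IP library, and Input 1 lay above it. The difference of 1.69 in log2 (SE 0.69) was not past the edgeR threshold (adjusted p = 0.176). It was 0.80 without IP 3.

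**Figure D2:**
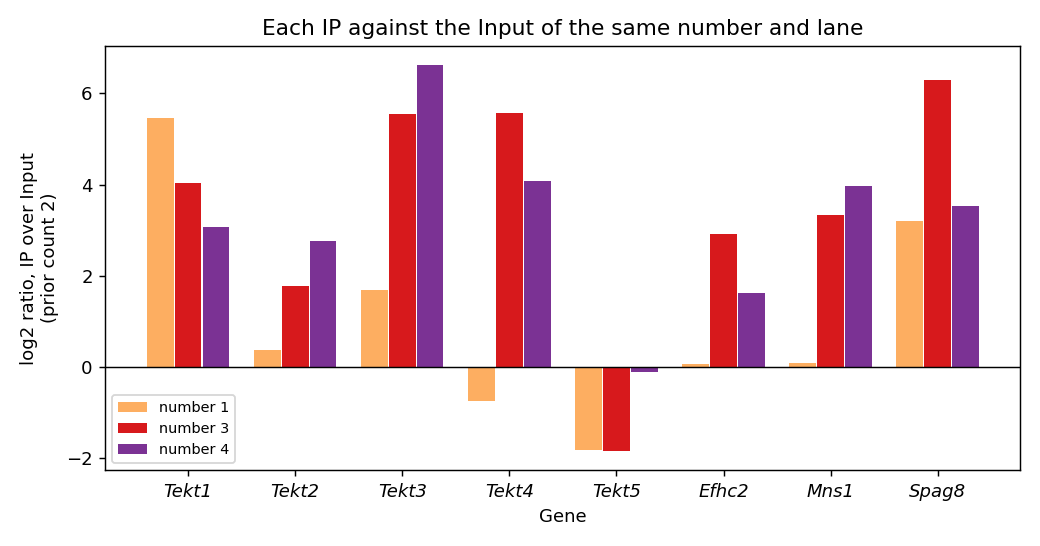
log2 ratio of each IP library to the Input library of the same number, which shared its sequencing lane (vertical axis, prior count of 2), for each gene; bars are numbers 1, 3 and 4. Number 1 lies near 0 for Tekt2, Efhc2 and Mns1 and at -0.75 for Tekt4, but at 5.46 for Tekt1 and 3.19 for Spag8, and Tekt5 is below 0 in all 3.

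Within lanes, Tekt1 had log2 ratios of IP to the Input of the same number of 5.46, 4.03 and 3.06 for numbers 1, 3 and 4, and Spag8 had 3.19, 6.30 and 3.53. These 2 genes were above 3 in every number. Tekt4 had -0.75, 5.56 and 4.07, and Mns1 had 0.09, 3.34 and 3.97. Number 1 therefore showed no excess of either gene, while it showed the highest ratio of Tekt1. The height of Tekt1 in number 1 rests on 5 reads in Input 1. Tekt5 had -1.82, -1.85 and -0.12. Leaving out IP 3, IP 4 or any 1 of the Inputs left 0 of the 7 called by edgeR, with 4 or 5 of them higher at an unadjusted p under 0.05, beside 10.5% to 11.5% of all tested genes. Without IP 4, 1 member, Tekt5, was lower at that level, beside 7.32% of all tested genes. The log2 excess itself stayed at 3.83 to 4.87 for Tekt4, 4.08 to 5.66 for Spag8 and 2.68 to 3.76 for Mns1 whichever library was left out. The share of all tested genes called higher was then 1.91% without IP 3, 0.0556% without IP 4, and 0.123%, 0.0704%, 0.0235% and 0.0236% without Inputs 1 to 4. Leaving out IP 1 gave 4 of 8 (Tekt3, Tekt4, Mns1 and Spag8), beside 12.5% of all genes tested. Tekt3 passed the filter in that fit only through its reads in IP 3 and IP 4. Its direction was thereby fixed, so its call there is no test. The IP excess of Tekt4, Mns1 and Spag8 was then 4.87, 3.76 and 5.01 in log2, with adjusted p from 9.22e-06 to 0.000943 by edgeR. That of Tekt3 was 7.65. Tekt1 stayed short of the edgeR threshold at 4.47 (adjusted p = 0.0523). With no filter on low counts, 2 of 8 were called (Tekt3 and Mns1), beside 2.33% of all genes.

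Levels were compared between genes per kilobase of exon (CPM per kb, union of GENCODE M21 exons). In IP the order was Tekt1 at 20.2 ± 14.4, Spag8 at 14.5 ± 11.2, Tekt4 at 9.31 ± 7.78, Efhc2 at 4.26 ± 3.40, Tekt3 at 2.68 ± 2.27, Tekt5 at 2.51 ± 1.39, Mns1 at 2.20 ± 1.70 and Tekt2 at 2.19 ± 1.75 CPM per kb (SD, n = 3). No neighbours in that order differed by more than their spread. In Input, Tekt5 led with 5.27 ± 1.58 CPM per kb (SD, n = 4), and its lowest Input, 4.14, was above the highest of any other member, Efhc2 at 2.80 in Input 1. Efhc2 at 1.32 ± 1.01, Tekt1 at 1.27 ± 1.33, Spag8 at 0.649 ± 0.741, Tekt2 at 0.621 ± 0.153, Tekt4 at 0.469 ± 0.266 and Mns1 at 0.232 ± 0.118 CPM per kb followed, with Tekt3 last at 0.0191 ± 0.0296. Each of these 6 genes overlapped its neighbour in that order, while the highest Tekt3 Input, 0.0624, lay below the lowest Mns1 Input, 0.104. The place of Mns1 in both orders is uncertain. Tex9 shares 53.0% of its exon bases, and reads that fit more than 1 gene were not counted.

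**Figure D3:**
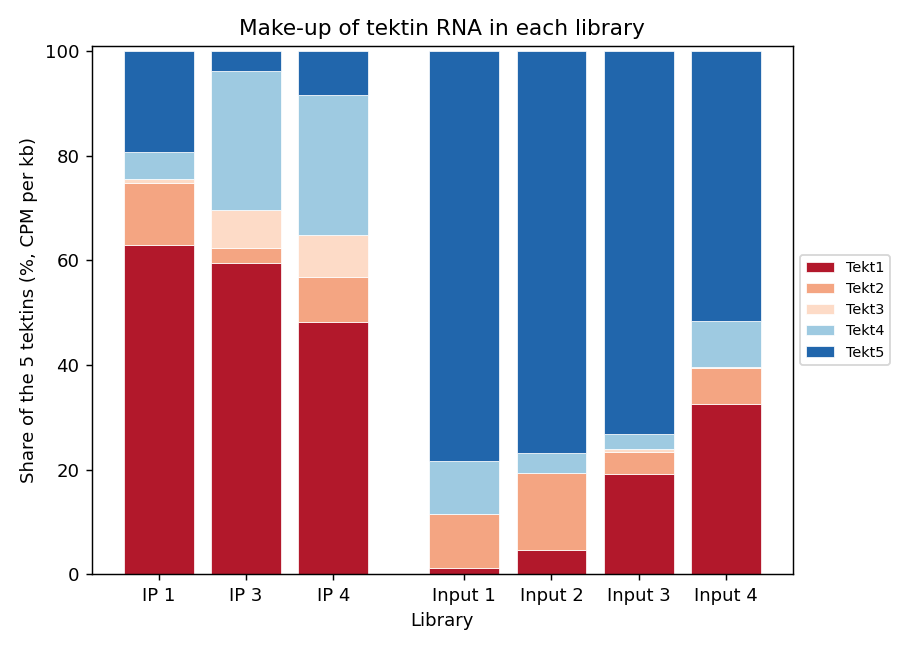
Share of each tektin in the summed length-scaled level of the 5 tektins (percent, CPM per kb), stacked for each of the 3 IP libraries (left) and 4 Input libraries (right). Tekt1 fills 48.2% to 62.9% of the IP bars, whereas Tekt5 fills 51.6% to 78.3% of the Input bars.

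The shares of Tekt1 and Tekt5 in tektin RNA thus separated these libraries by group, which is a description and no test. All shares are parts of 1 sum, so those of Tekt1 and Tekt5 are not independent of each other. Tekt5 made up 19.3%, 3.78% and 8.40% of the summed length-scaled tektin level in IP 1, IP 3 and IP 4, against 78.3%, 76.8%, 73.3% and 51.6% in Inputs 1 to 4. Tekt1 made up 62.9%, 59.5% and 48.2% in IP 1, IP 3 and IP 4, against 1.20%, 4.60%, 19.2% and 32.5% in Inputs 1 to 4. For both genes the groups did not overlap, and IP 1 sided with the other IP libraries although its summed tektin level, 7.18 CPM per kb, lay inside the Input range of 5.39 to 10.3 (IP 3 had 55.2 and IP 4 had 48.4). Tekt4 took 5.16%, 26.5% and 26.7% in IP 1, IP 3 and IP 4, against 2.77% to 10.1% in the Inputs, so that here IP 1 resembled the Inputs.

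Whether members differed from Tekt1 in their excess was tested on the log2 ratio of each to Tekt1 within a library, with an exact two-sided permutation test over the 7 libraries that cannot go below p = 0.0571. Of 7 comparisons, Tekt5 and Tekt2 reached that smallest value (exact p = 0.0571 each, adjusted p = 0.200). The ratio of Tekt5 to Tekt1 averaged -2.57 ± 1.15 over the IP and 3.18 ± 2.18 over the Input libraries (± SD), a difference of -5.74. That of Tekt2 was -2.85 ± 1.14 in IP and 0.22 ± 2.53 in Input, a difference of -3.07. Efhc2, Mns1, Tekt4, Spag8 and Tekt3 differed from Tekt1 by -2.93, -1.80, -1.30, -0.28 and 0.23, with exact permutation p from 0.286 to 0.914. The value of Tekt3 depends on the prior count, since its Inputs hold 0, 0, 4 and 1 reads, and was 1.32 with a prior count of 0.5. Without Input 1 the differences of Efhc2, Mns1 and Tekt4 were smaller, at -1.61, -0.74 and -0.23. Those of Tekt2 and Tekt5 were smaller too, at -2.16 and -4.89, while Tekt3 moved to 0.91 and Spag8 to 0.14.

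**Figure D4:**
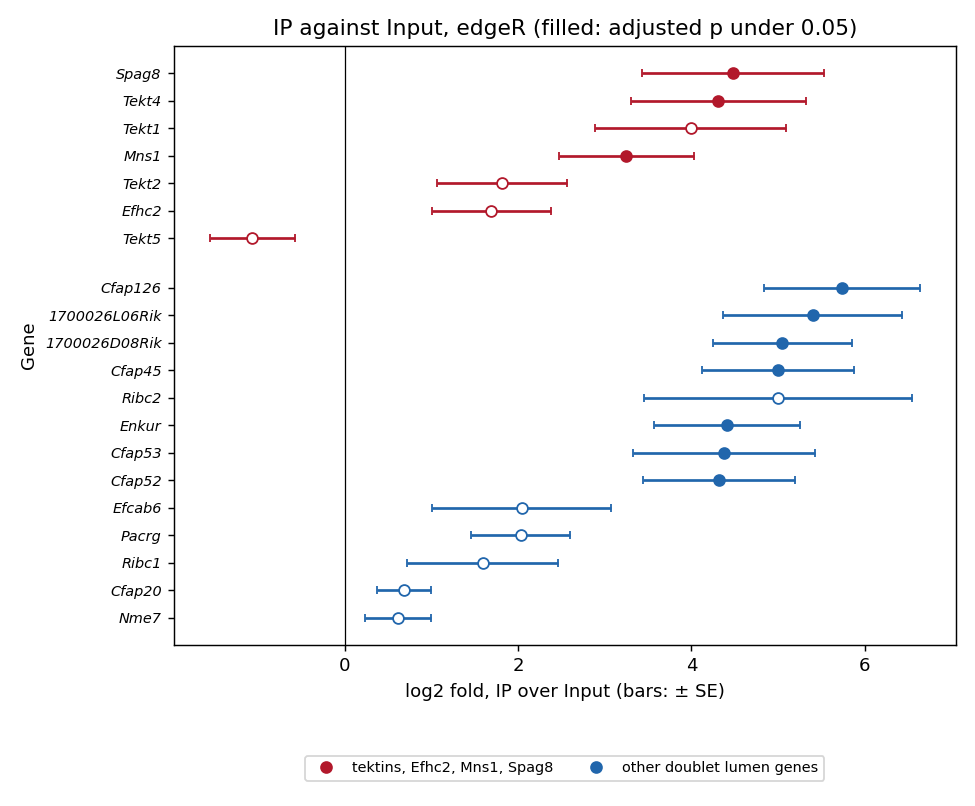
log2 fold of IP over Input (horizontal axis, bars ± SE, edgeR) for the 7 members tested (red, above) and 13 other genes of doublet lumen proteins (blue, below); filled points passed an adjusted p under 0.05. Spag8, Tekt4 and Mns1 are filled among the members, and Tekt5 at -1.07 is the single point left of 0.

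Other genes of proteins inside the doublet were set beside these. Of 24 such genes listed, 13 were matched in the tables. The other 11 were not analysed here, and some may stand in the tables under older symbols that were not matched. Of the 13, 7 rose and 0 fell (edgeR), beside 3.64% and 2.16% of all tested genes. Their median log2 fold was 4.38, beside 0.06 over all tested genes. The fold was positive in 13 of 13, beside 9224 of all 17375 tested genes. DESeq2 called 9 higher and 0 lower, beside 8.78% and 6.38% of all genes. At an unadjusted edgeR p under 0.05, 9 were higher and 0 lower, beside 13.3% and 9.4% of all genes. Cfap126, also called Flattop and also 1 of the 10 ependymal markers, had 17.4, 280.8 and 166 CPM in IP 1, IP 3 and IP 4, against 1.30 to 5.98 CPM in the Inputs (5.74 in log2, SE 0.90; adjusted p = 0.0147 by edgeR, and 0.0306 with the block). The gene listed as 1700026D08Rik, a RefSeq synonym of Cfap161, rose by 5.05 in log2 (SE 0.80; adjusted p = 0.0147 by edgeR), and was not called with the block (adjusted p = 0.127). Cfap45 rose as well, with 3.94, 108 and 56.6 CPM in IP 1, IP 3 and IP 4, against 1.21 to 2.24 CPM in the Inputs (adjusted p = 0.0193 by edgeR, and 0.110 with the block). The gene listed as 1700026L06Rik, a RefSeq synonym of Spaca9, rose with 5.26, 38.0 and 32.5 CPM in IP 1, IP 3 and IP 4, against 0.0223 to 1.23 CPM in the Inputs (5.40 in log2, SE 1.03; adjusted p = 0.0231 by edgeR, and 0.0606 with the block). With the block 1 of the 13 was called higher, beside 0.553% of all tested genes. Without IP 4 or any 1 Input 0 were, beside 0.0235% to 0.123% of all tested genes. Cfap45 overlaps the antisense model 4933439K11Rik, so its count is uncertain. The smallest log2 folds were those of Nme7 (0.61, SE 0.38; adjusted p = 0.389 by edgeR) and Cfap20 (0.68, SE 0.31; adjusted p = 0.222), a pair named after their values were seen, and both had Input levels above those of all 8 members, at 13.1 ± 3.34 and 49.1 ± 5.70 CPM not scaled by length. Nme7 overlaps other models on both strands, so its count is uncertain.

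The genes closest in pattern to the median profile of the 7 tested members, by root mean square distance of mean-centred log2 CPM over the 7 libraries, were Marveld1, Ppil6, Tgm2, Ccdc34 and Ptgds, at 0.283 to 0.327 log2 units. Marveld1 had 5.28, 37.6 and 31.5 CPM in IP 1, IP 3 and IP 4, against 2.28 to 4.04 CPM in the Inputs. Ptgds, the synthase of prostaglandin D2 in the brain and its coverings, had 737, 5460 and 4842 CPM in IP 1, IP 3 and IP 4, against 355.6 to 461 CPM in the Inputs. Tgm2 and Ccdc34 overlap other models on the opposite strand and are uncertain. Of the members, which themselves set that median, Mns1 lay nearest the profile (0.436, rank 18 among 17375 tested genes). Tekt5 lay farthest (2.03, rank 13348), followed by Tekt1 (1.73, rank 8743). Spag8, Efhc2, Tekt2 and Tekt4 lay at 1.35, 1.23, 1.03 and 0.877. Every tested member thus lay farther from the median than the genes named first, and the members did not share 1 close pattern. Tekt3, which was filtered out, has no distance.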

How the data were processed

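The deposited tables hold whole-number counts of reads per gene symbol, 1 table per library. Per the submitters' processing notes, the authors used STAR 2.0.0e and HTSeq with mm10, and the sources used here name neither the annotation nor the strand setting nor the library kit. Lines for reads not assigned to a gene (40.1% to 52.1% of the counts of each library) stayed out of library sizes and tests. These lines include reads outside genes, reads that fit more than 1 gene and alignments that were not unique. The last kind numbered 17257086, 21088929 and 38604312 in IP 1, IP 3 and IP 4, against 15925254 to 18456813 in the Inputs. Its effect on the folds was not tested. Reads that HTSeq could place in more than 1 gene were not counted, which lowers genes that overlap others. They numbered 1432745 to 1661754 in the IP and 7694539 to 11377831 in the Input libraries, so the loss differed between the groups. Its effect on the folds of overlapping genes such as Mns1 was not tested. Genes were kept with filterByExpr (minimum count 10, minimum total count 15), scaled with TMM factors and tested over all 7 libraries with edgeR 4.0.16 in R 4.3.3 (robust quasi-likelihood test, group as the only term), with p-values adjusted over all 17375 genes. The procedure was tested on simulated data. SE was computed from the log2 fold and the root of its F statistic. Log2 CPM values use a prior count of 2. DESeq2 1.42.0 was run as an alternative.

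The labels put the IP and Input of numbers 1, 3 and 4 on a shared lane each (4, 2 and 3), so the number was used as a block in an alternative fit. After subtraction of the group mean, IP and Input of one number correlated at 0.032, 0.043 and 0.026 across genes. Pairs of different numbers correlated at -0.039 to 0.012, so each pair of one number lay above them, by a small margin. Nothing says that libraries come from separate animals, so p-values measure the spread between these libraries, which may be technical. Gene positions and exon lengths come from GENCODE M21, on the assembly of mm10, 1-based. The members, gene lists and tests were chosen with earlier results of these data known. Named genes are the 8 members, Foxj1 and Dcdc2a, the 4 other doublet lumen genes of smallest p, and the 5 named genes nearest the members' median profile; Tex9 was added for its overlap, and Nme7 and Cfap20 after their values were seen. No protein sequences were used. A further gene of the doublet lumen list is not reported here.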

Additional observations from a re-analysis of the deposited data

How the results depend on the processing

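Directions of the 7 members' folds were the same in every alternative run. The calls were not. DESeq2's test called 1595 genes higher and 1158 lower and 6 members higher. The replicate block gave 96 higher and 33 lower genes, 1 member and 1 other doublet lumen gene. Leaving out 1 library gave 4 to 2259 higher and 16 to 1724 lower genes, 0 to 4 members and 0 to 11 other doublet lumen genes, with the most called each time without IP 1. The ratio to Tekt1 changed sign for Tekt3 (-0.47 to 1.23 over the libraries left out, from 0.23) and for Spag8 (-1.07 to 0.16 over the libraries left out, and 0.16 with the replicate block, from -0.28), and the cause was not tested. Those of Efhc2, Mns1, Tekt4, Tekt2 and Tekt5 kept their sign, at -3.96 to -1.61, -2.63 to -0.74, -2.02 to -0.23, -3.80 to -2.16 and -6.53 to -4.89 over the libraries left out. The prior count of 0.5 took Tekt3 to 1.32. Size factors of DESeq2, total counts and longest-transcript lengths changed no member's call and no tektin share by more than its SD. Depth limits Tekt3, with 5 Input reads in all, and Tekt1 in Input 1.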
